A study of Homo sapiens with 24 samples.

Results

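Clustered histone genes were followed across 12 groups of arrays from 2 human pancreatic cancer cell lines. These are the genes whose names in the deposited table begin with HIST1 to HIST4 followed by H. Of the 34595 gene-level rows of the table, 70 carried such a name: 6 for the linker histone H1, 17 for H2A, 18 for H2B, 14 for H3 and 15 for H4. A gene was taken further if its detection p-value lay under 0.01 on both arrays of at least 1 group, which 36 of the 70 did (1 of H1, 8 of H2A, 9 of H2B, 8 of H3 and 10 of H4), against 13361 of all 34595.

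PANC-1 (Panc1) and Capan-1 (Capan1), both lines from pancreatic ductal adenocarcinoma, were each measured in 6 groups of 2 one-colour Illumina bead arrays, 24 arrays in all, after growth in medium with 10% serum. The DMSO group received only the solvent, and the inhibitor group received 10 uM of a compound against the kinases IRAK1 and IRAK4 for 24 h. IRAK1 and IRAK4 carry signals from the receptors of interleukin-1 and from Toll-like receptors. Cells of the 4 hairpin groups had been infected with a retrovirus conferring puromycin resistance (1 ug/mL for 48 h) and then with another conferring geneticin resistance and carrying GFP (500 ug/mL for 4 days). In the scramble group both viruses carried a scrambled sequence. In the shIRAK1 and shIRAK4 groups the first virus carried a hairpin against that kinase and the second a scrambled sequence, and in the shIRAK1+4 group the first targeted IRAK1 and the second IRAK4. The design text of the series names PANC-1 alone for the hairpins, but arrays of both lines carry hairpin labels, and the Capan1 hairpin groups rest on those labels. These groups were selected pools, and they differ from the DMSO group in virus, selection and solvent together. Nothing in the labels ties the 2 arrays of a group to separate cultures. The p-values therefore cover the spread between the 2 arrays of a group, pooled over all 12 groups, and that spread may be technical.

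The core histones H2A, H2B, H3 and H4 form the protein spool around which DNA is wound, and H1 binds where DNA enters and leaves it. Most clustered histone genes have no introns and are transcribed chiefly in S phase, when new DNA is packed. Their messenger RNAs normally end in a conserved stem-loop bound by SLBP rather than in a poly(A) tail, and tailed transcripts of some of these genes are known from differentiated or non-dividing cells. The labelling kit named in the labels starts copying at poly(A), so the arrays report tailed transcripts, and a change on them can be one of transcript amount or of the tailed share. In such bulk samples, fewer cells with a transcript and less transcript per cell cannot be told apart either.

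Levels are log2 signals after background correction and quantile normalization, and fold changes are differences of mean log2 levels ± SE from limma with 2 arrays a group. A gene was called at a limma adjusted p under 0.05 over all tested genes of a comparison. Each array detected 10015 to 12090 genes, and detection began at a level of 5.53 to 5.72. Signals of different genes come from different probes and are not set against each other.

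Markers and the targeted kinases were read on the same arrays. Of 11 ductal epithelial marker rows, which hold EPCAM also under its older symbol TACSTD1, 10 were detected on all 12 Capan1 arrays and 6 on all 12 Panc1 arrays, where CFTR was on none. Of 10 fibroblast markers, 7 were on no Panc1 array and 8 on no Capan1 array, among them COL1A2, COL3A1, DCN and PDGFRB in both, while ACTA2 was on both DMSO arrays of each line and COL1A1 and THY1 on both of Panc1. Of 10 immune markers, 7 were on no Panc1 array and 6 on no Capan1 array, among them PTPRC, CD3E and CD163 in both, while CD68 was on both DMSO arrays of each line and LYZ on both of Capan1. IRAK1 lay at 11.30 and 11.53 in Panc1 scramble arrays, at 8.32 and 9.57 with shIRAK1 and at 8.36 and 8.65 with shIRAK1+4 (-2.47 ± 0.29 and -2.91 ± 0.29, limma adjusted p = 6.27e-05 and 1.25e-05). In Capan1, IRAK1 fell with shIRAK1+4 (-1.6 ± 0.29, limma adjusted p = 0.00501), and differed by -1.19 ± 0.29 with shIRAK1 (adjusted p = 0.0541). It also differed by -0.85 ± 0.29 with shIRAK4 there (adjusted p = 0.0888). IRAK4 was on no array of the scramble, shIRAK4 or shIRAK1+4 groups of either line, so its hairpin could not be checked against scramble. In Panc1 it was detected at 6.41 and 5.95 with DMSO, 5.80 and 5.81 with the inhibitor and 5.91 and 6.01 with shIRAK1, and it lay at 5.44 and 5.54 with scramble. It was called lower in scramble than in DMSO (limma adjusted p = 0.00156) and higher with shIRAK1 than with scramble (adjusted p = 0.0327).

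The upstream sequences of genes that carry the results are shown first, from the RefSeq annotation of GRCh38.p14. HIST2H2AC and HIST2H2BE, an H2A and an H2B gene, lie head to head, and the 235 bases between their starts are shown in the direction of HIST2H2AC. For the other 3 genes the 150 bases before the start are shown: among the histone genes HIST1H3B had the largest rise with the inhibitor, HIST1H4H the largest change with the hairpins in Capan1, and HIST2H2AA3 the largest fall with shIRAK1+4 in Panc1. Capitals mark 3 words searched on both strands: the octamer ATTTGCAT, which is bound by OCT1 and is known from H2B promoters, CCAAT, which is bound by NF-Y, and TATAAA, the TATA box. No matches overlapped in the stretches shown.
HIST2H2BE to HIST2H2AC, chr1:149886683-149886917, plus strand: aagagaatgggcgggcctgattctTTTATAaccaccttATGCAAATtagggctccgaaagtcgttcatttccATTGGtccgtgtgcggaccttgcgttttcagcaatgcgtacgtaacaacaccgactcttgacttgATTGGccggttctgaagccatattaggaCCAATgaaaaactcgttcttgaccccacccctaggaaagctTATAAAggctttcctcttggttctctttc
HIST1H3B, chr6:26032100-26032249, minus strand: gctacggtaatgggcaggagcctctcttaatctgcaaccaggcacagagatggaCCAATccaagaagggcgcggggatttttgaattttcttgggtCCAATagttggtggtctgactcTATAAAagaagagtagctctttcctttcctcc
HIST1H4H, chr6:26285535-26285684, minus strand: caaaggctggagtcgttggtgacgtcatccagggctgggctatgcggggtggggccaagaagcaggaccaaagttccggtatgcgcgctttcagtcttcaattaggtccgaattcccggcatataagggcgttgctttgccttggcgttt
HIST2H2AA3, chr1:149842751-149842900, minus strand: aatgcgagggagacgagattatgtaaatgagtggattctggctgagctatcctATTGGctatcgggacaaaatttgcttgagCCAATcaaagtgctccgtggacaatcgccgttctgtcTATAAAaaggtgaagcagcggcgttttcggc

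In the 250 bases before the start, the octamer stood in 1.66% of 27305 RefSeq promoters, CCAAT in 33% and TATAAA in 11.1%. Of the 36 detected histone genes, 32 matched 1 current symbol, and 31 of them had a promoter in the table. The octamer stood in 5 of 5 such H2B promoters and 5 of 8 of H2A, in 1 of 8 of H3 and in 0 of 9 of H4. CCAAT stood in all 8 of H2A, all 5 of H2B and all 8 of H3 but in 1 of 9 of H4, and TATAAA in 20 of the 31. Among the family's genes that were not detected by the rule the octamer stood in 10 of 29. A match is a string of letters and not a measured site. Of the 32 genes, 20 lie on chromosome 6 (the HIST1 cluster), 11 on chromosome 1 (HIST2 and HIST3) and 1 on chromosome 12 (HIST4H4). The promoters of HIST2H2AA3 and HIST2H2AA4 share an identical run of 249 of the 250 bases. These genes are near-identical copies, as are HIST2H4A and HIST2H4B, so their probes may each read both copies and the values of each pair are not independent.

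Detection of the family was counted by class and by line. Of the 36 genes, 15 were detected on all 24 arrays: HIST1H1C, 5 H2A, 5 H2B and 4 H4 genes, and no H3 gene. All 36 were detected in at least 1 Capan1 group and 26 in all 6, against 24 and 15 in Panc1, where 8 of the 36 were on no array. Groups of Capan1 detected 29 to 33 of the genes on both arrays, and groups of Panc1 15 to 22. Over all genes, Capan1 arrays detected 10359 to 12090 and Panc1 arrays 10015 to 11123. The matching share of all genes by line was not counted. The 36 were admitted by detection in any group, so genes seen in Capan1 alone are among them. Of the 34 genes that were not taken further, 25 were on no array.

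HIST1H1C, which encodes the linker histone H1.2, was the 1 detected gene of the 6 for H1. In Capan1 it lay at 10.94 and 11.18 with DMSO, at 10.49 and 10.36 with the inhibitor, and at 9.49 and 9.93 with scramble. With the hairpins it lay at 9.78 and 10.42 (shIRAK1), 11.34 and 11.11 (shIRAK4), and 9.38 and 11.51 (shIRAK1+4). The 2 arrays of the last group thus spanned the whole range of the line. In Panc1 it lay at 10.07 and 10.04 with DMSO, 9.82 and 9.91 with the inhibitor, 9.63 and 9.37 with scramble, and between 8.57 and 8.95 on all 6 hairpin arrays against the kinases. Those 6 arrays lay below every other Panc1 array, but no Panc1 comparison of HIST1H1C passed the test (shIRAK1+4 -0.78 ± 0.42, limma adjusted p = 0.23). That SE is pooled over all 12 groups. The SD of HIST1H1C was 1.51 in Capan1 shIRAK1+4 and 0.02 to 0.21 in the Panc1 groups.

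For each class, 3 detected genes with high mean signals are shown. This chooses what to show and gives no order of transcript amounts, since probes differ. For H2A they were HIST2H2AA4, HIST2H2AA3 and HIST2H2AC, all of the HIST2 cluster. HIST2H2AA3 spanned 9.58 to 11.23 over the Capan1 arrays and 7.95 to 9.73 over those of Panc1. HIST2H2AC spanned 9.23 to 10.93 and 7.73 to 9.41. The lowest Capan1 array of HIST2H2AC thus lay below the highest Panc1 array, and the lines overlapped.

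For H2B they were HIST1H2BK (11.34 to 12.57 over the 24 arrays), HIST2H2BE (8.13 to 10.19 in Capan1, 5.67 to 6.63 in Panc1) and HIST1H2BJ. For H4 they were HIST1H4C (12.68 to 13.81), HIST2H4A (8.5 to 10.04 in Capan1, 6.69 to 7.78 in Panc1) and HIST1H4H (7.68 to 9.56 and 7.02 to 8.06). The H3 genes HIST1H3F, HIST1H3H and HIST1H3D had no array above 7.64.

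**Figure D1:**
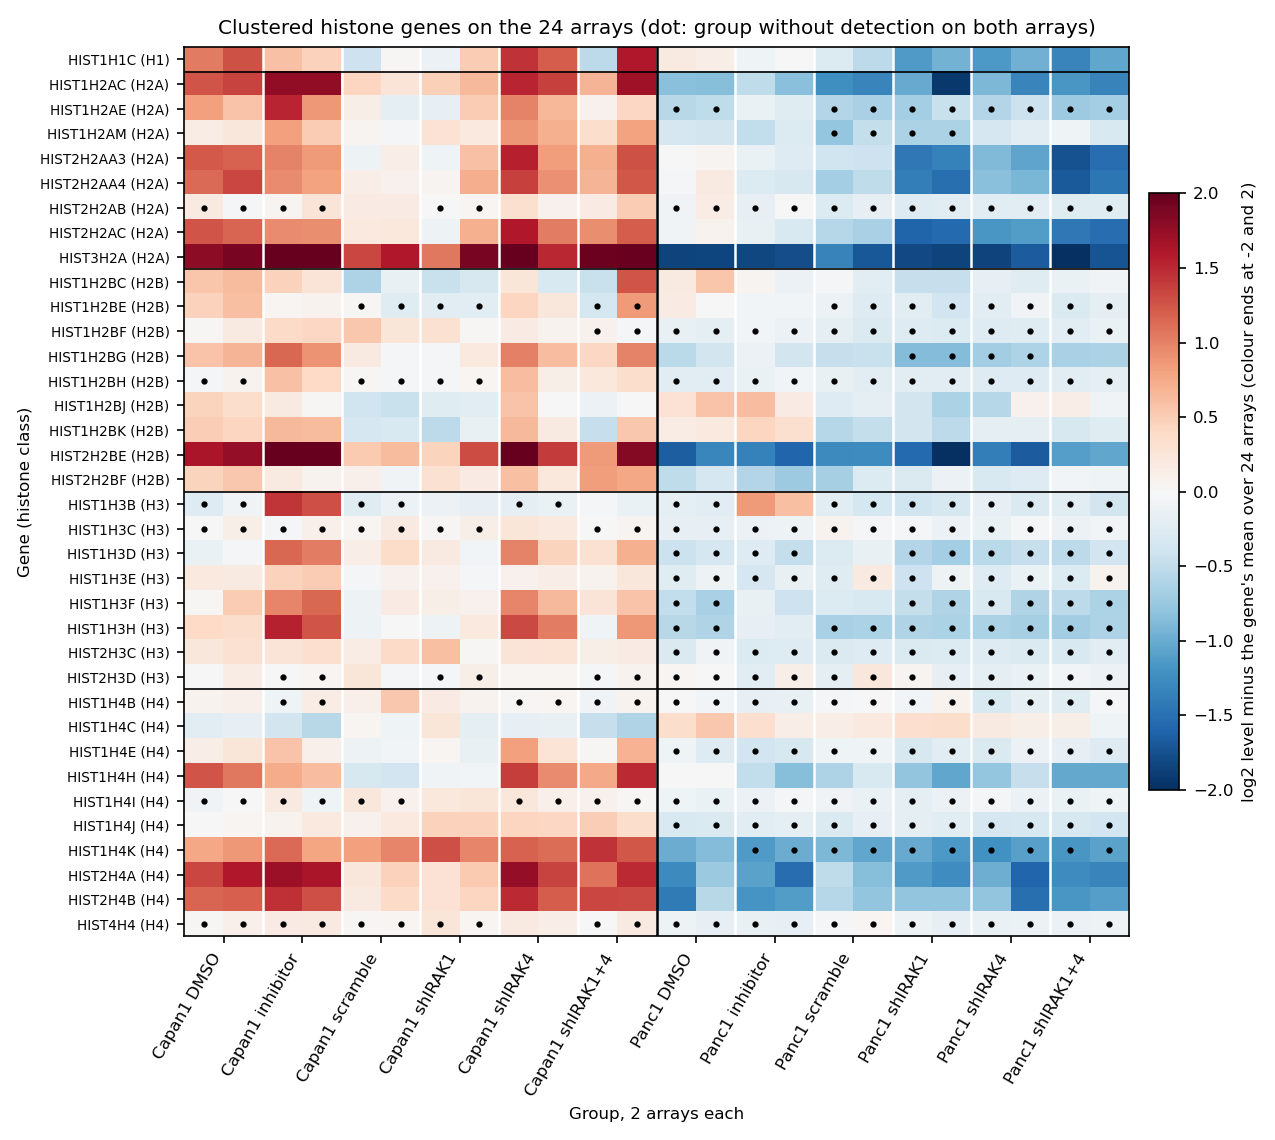
Log2 level of the 36 detected histone genes (y axis, by class) on each of the 24 arrays (x axis, 2 per group), drawn as the difference from the gene's own mean, with dots where detection failed on 1 or both arrays of the group. HIST3H2A and HIST2H2BE separate the lines on every array, and the Capan1 scramble and shIRAK1 columns are paler than the other Capan1 columns for most H2A genes.

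Whether the lines differ without treatment was read from the DMSO groups. Panc1 had 20 of 30 tested histone genes lower than Capan1 and 1 higher. Over all tested genes 26.8% were called lower and 30.1% higher. The lower genes were all 7 tested H2A genes, 4 of 8 for H2B, 4 of 6 for H3 and 5 of 8 for H4. Genes detected on both DMSO arrays of Capan1 alone were tested too. Their Panc1 side rests partly or wholly on background, and their direction follows largely from this filter. All 6 tested H3 genes are of this kind, as are HIST1H2AE, HIST1H2BF and HIST1H4J among the other lower genes.

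HIST3H2A, a single H2A gene of the HIST3 cluster, lay at 9.62 and 9.73 in Capan1 and at 5.97 and 5.99 in Panc1 (-3.69 ± 0.23, limma adjusted p = 1.11e-09). Over all groups its Capan1 arrays (8.89 to 9.96) never met its Panc1 arrays (5.80 to 6.49). Its head-to-head neighbour HIST3H2BB was detected on 1 of the 24 arrays.

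HIST2H2BE lay at 9.30 and 9.43 against 6.03 and 6.37 (-3.17 ± 0.34, limma adjusted p = 7.52e-07). Its head-to-head partner HIST2H2AC differed less, at 10.59 and 10.50 against 9.26 and 9.41 (-1.21 ± 0.20, adjusted p = 9.11e-05). The difference between these 2 fold changes was not tested.

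HIST2H4A (-2.48 ± 0.23), HIST2H4B (-2.17 ± 0.23), HIST1H2AC (-2.15 ± 0.28) and HIST1H4K (-1.75 ± 0.13) were also lower, with limma adjusted p of 6.8e-06 or less. The sizes depend on the background step. With the background taken from all rows HIST3H2A differed by -1.57, HIST2H2BE by -1.19, HIST2H4A by -1.51, HIST2H4B by -0.53, HIST1H2AC by -1.66 and HIST1H4K by -0.23, so their order changed while each was still called.

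Other lists differed between the lines too. Of 34 replication genes 15 were lower in Panc1, among them GINS2 (-2.18 ± 0.14) and CDT1 (-1.91 ± 0.23), and 8 were higher. Of 10 tested ductal marker rows 9 were lower and 0 higher, with EPCAM at -5.86 ± 0.16 and KRT7 at -5.67 ± 0.20. Their part in the histone differences was not tested.

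HIST1H4C, an H4 gene, was the 1 gene higher in Panc1, at 13.63 and 13.81 against 13.05 and 13.11 (0.64 ± 0.13, limma adjusted p = 0.000492). HIST1H1C differed by -1.0 ± 0.42 (adjusted p = 0.0531). When each array was scaled to the same median over all rows, 13 genes were called lower and HIST1H4C missed the threshold (adjusted p = 0.0514).

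In Capan1, against DMSO, the inhibitor raised H3 genes: 4 of the 7 tested H3 genes were higher and 0 lower, together with 1 of 7 for H2A and 1 of 9 for H2B. That made 6 of 32 histone genes higher (18.8%) and 0 lower, where 16.5% of all tested genes were called higher and 15.8% lower, so the overall count is near that of all genes.

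HIST1H3B, an H3 gene of the HIST1 cluster, lay at 5.49 and 5.67 with DMSO, where 1 of 2 arrays detected it, and at 7.18 and 7.03 with the inhibitor (1.52 ± 0.11, limma adjusted p = 7.16e-08). On the 8 hairpin-arm arrays of Capan1 it lay between 5.5 and 5.70. The inhibitor arrays lay above all other arrays of the line.

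HIST1H3D rose from 5.91 and 6.0 to 7.20 and 7.07 (1.18 ± 0.16, limma adjusted p = 6.68e-05). HIST1H3H rose from 6.49 and 6.45 to 7.64 and 7.36 (1.03 ± 0.20, adjusted p = 0.00129), and HIST1H3F from 6.18 and 6.65 to 7.12 and 7.30 (0.79 ± 0.17, adjusted p = 0.00216). In each of these 3 genes the inhibitor arrays lay above both DMSO arrays. HIST1H2BH, the head-to-head neighbour of HIST1H3F, rose by 0.47 ± 0.12 (limma adjusted p = 0.00823), with 1 of 2 DMSO arrays detecting it, and HIST1H2AM by 0.47 ± 0.15 (adjusted p = 0.0244). HIST1H3B and HIST1H2BH entered this test through the inhibitor arrays alone, so their direction follows largely from the detection filter.

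The 4 H3 genes were called under all alternatives, but their size rests on the background step: with the background taken from all rows HIST1H3B rose by 0.17 and HIST1H3F by 0.11. HIST1H2AM was lost without either DMSO array or without Capan1 inhibitor replicate 1, and HIST1H2BH without Capan1 DMSO replicate 1 or Capan1 inhibitor replicate 1. Both were also lost under median scaling over the detected rows and with the Capan1 arrays alone in the fit. HIST1H2AM was lost as well without background correction, with the authors' normalized table and without a detection filter.

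In Panc1 the inhibitor raised 1 of 23 tested histone genes, again HIST1H3B, and lowered 0, beside 3.73% of all tested genes higher and 3.02% lower. HIST1H3B lay at 5.54 and 5.52 with DMSO, where neither array detected it, and at 6.59 and 6.35 with the inhibitor, at least 1.79-fold higher with this background step (fitted 0.94 ± 0.11, limma adjusted p = 9.95e-05). With the background taken from all rows the difference was 0.094 and was still called. No other Panc1 group detected it on any array. HIST1H3H went from no detection at 5.54 and 5.49 to detection on both arrays at 5.92 and 5.87, close to the detection limit. That is at least 1.2-fold higher with this background step, but the fitted 0.38 ± 0.20 did not pass (limma adjusted p = 0.308). HIST1H3B and HIST1H3H entered this test through the inhibitor arrays alone, so their direction follows largely from the detection filter. The call of HIST1H3B was lost when arrays were scaled over the detected rows (adjusted p = 0.0676).

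The difference of the inhibitor effect between the lines was tested directly. It was called for HIST1H3D (-1.16 ± 0.23, limma adjusted p = 0.00357) and HIST1H3B (-0.58 ± 0.15, adjusted p = 0.0165). These sizes are not firm: HIST1H3B was on no Panc1 DMSO array and HIST1H3D on 1 of 2 arrays of both the Panc1 DMSO and the Panc1 inhibitor group, so their Panc1 effects rest partly on background. With the background taken from all rows the differences were -0.14 for HIST1H3D and -0.079 for HIST1H3B. That made 0 of 32 histone genes higher and 2 lower, beside 7.90% and 8.12% of all tested genes. HIST1H3D lost this call under median scaling over all rows and under no other alternative, and HIST1H3B without background correction, with scaling over the detected rows, with the authors' normalized table, and without Capan1 DMSO replicate 1, Capan1 inhibitor replicate 1, Panc1 DMSO replicate 1 or Panc1 inhibitor replicate 2. The count was 1 without Capan1 DMSO replicate 1, Capan1 inhibitor replicate 1 or Panc1 inhibitor replicate 2.

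Genes of DNA replication and of histone supply were read in the same comparisons. Of 34 tested genes of DNA replication and G1/S, 0 were higher and 23 lower with the inhibitor, with a median fold change of -0.70, while the tested histone genes had a median of 0.16 and all tested genes 0.00. RRM2, a subunit of ribonucleotide reductase, fell by 1.93 ± 0.25, POLE2, of DNA polymerase epsilon, by 1.83 ± 0.19, and MCM6, of the replicative helicase, by 1.54 ± 0.16. Of 13 genes for histone gene transcription and 3-prime processing, 5 were lower and 0 higher. They included CCNE1, cyclin E1 (-1.49 ± 0.20), CSTF2, a cleavage factor (-1.21 ± 0.23), and CDK2 (-0.71 ± 0.17). Of 10 replacement histones, which are made outside S phase from tailed transcripts, 4 were higher and 0 lower. H3F3B, one of the H3.3 genes, rose by 1.81 ± 0.21, H1FX by 0.71 ± 0.15 and H1F0 by 0.69 ± 0.18. Of 14 chaperones and acetyltransferase genes, RBBP4 rose by 0.42 ± 0.13, and CHAF1B (-0.86 ± 0.19) and ASF1B (-0.59 ± 0.15) fell.

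In Panc1 the replication list had 0 of 35 higher and 1 lower with the inhibitor, POLA2 (-0.83 ± 0.15). H1FX rose by 0.69 ± 0.15 as the 1 of 10 replacement histones called there, NAP1L4 fell by 0.52 ± 0.12 and RBBP4 rose by 0.48 ± 0.13 among 14 chaperone genes, and none of 13 transcription and processing genes was called. The differences in effect between the lines gave 13 of 35 replication genes higher in Panc1 than in Capan1 and 0 lower.

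Ductal markers moved as well: in Capan1, SOX9 fell by 1.72 ± 0.32, KRT8 by 0.94 ± 0.14 and KRT19 by 0.55 ± 0.18, and in Panc1 KRT19 fell by 1.21 ± 0.18. The log2 of the summed signal of the 11 marker rows ran from 15.39 to 15.47 with DMSO and from 14.91 to 14.97 with the inhibitor in Capan1. In Panc1 it ran from 13.05 to 13.07 with DMSO and from 12.23 to 12.38 with the inhibitor. Of 10 immune markers, LYZ, which Capan1 expresses, fell by 3.32 ± 0.33 there. Their part in the histone results was not tested.

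**Figure D2:**
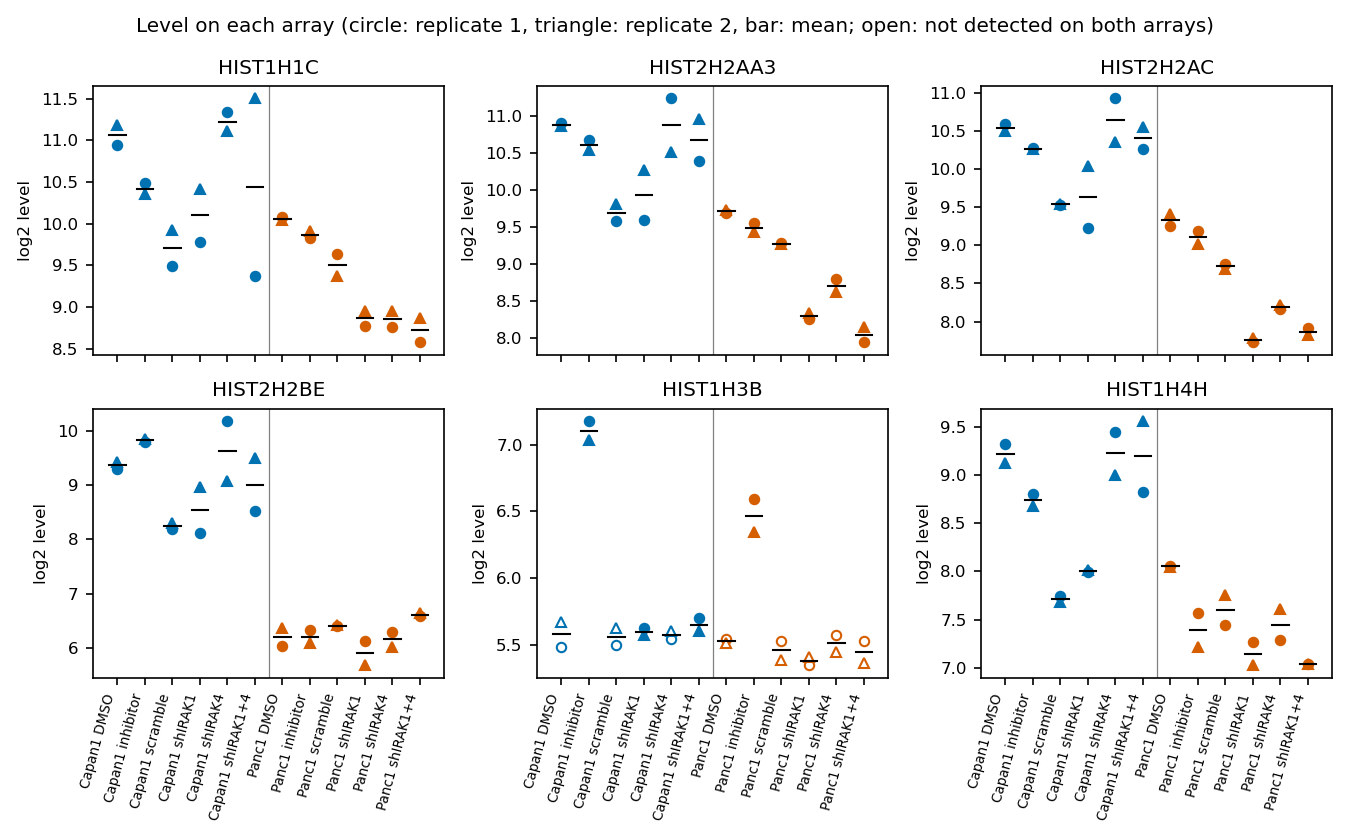
Log2 level (y axis) of 6 histone genes on each array of the 12 groups (x axis; blue Capan1, orange Panc1; circle replicate 1, triangle replicate 2, bar the mean; open where detection failed on 1 or both arrays of the group). HIST1H3B is raised in the inhibitor groups alone, at 7.18 and 7.03 in Capan1 and 6.59 and 6.35 in Panc1, while the other 5 genes have their lowest Capan1 mean in scramble arrays.

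The hairpin groups of Capan1 were first set against DMSO through scramble. Scramble arrays had 14 of 31 tested histone genes lower than DMSO arrays and 0 higher, where 7.65% of all tested genes were lower and 7.97% higher. The lower genes were HIST1H1C, 5 of 8 for H2A, 5 of 8 for H2B and 3 of 8 for H4. By cluster they were 7 of 10 HIST2 genes and 7 of 20 HIST1 genes.

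HIST1H4H, an H4 gene, went from 9.32 and 9.12 with DMSO to 7.75 and 7.68 with scramble (-1.51 ± 0.21, limma adjusted p = 0.00013). HIST2H2AA3 went from 10.90 and 10.85 to 9.58 and 9.81 (-1.18 ± 0.23, adjusted p = 0.00216). In both genes the groups were apart by more than the spread within them.

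HIST1H1C fell by 1.35 ± 0.42 (limma adjusted p = 0.0403), HIST2H4A by 1.13 ± 0.23 (0.00319) and HIST2H2AA4 by 1.12 ± 0.21 (0.00157). The head-to-head genes HIST2H2BE (-1.12 ± 0.34, limma adjusted p = 0.0339) and HIST2H2AC (-1.01 ± 0.20, adjusted p = 0.00306) were both called. HIST2H2BE lost its call without any 1 of the 4 arrays compared, with a replicate block, with the Capan1 arrays alone in the fit, without a detection filter, with the background from all rows and under median scaling over all rows. HIST1H1C lost its call under all of these but the replicate block, and HIST2H2AC under median scaling over all rows alone. Virus, selection and solvent all differ between these groups and cannot be told apart.

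The count was 5 without either Capan1 DMSO array, 1 higher and 5 lower without Capan1 scramble replicate 1, and 1 higher and 6 lower without Capan1 scramble replicate 2. The fall of HIST1H4H was called in each of these and under all other alternatives except median scaling over all rows, where the count became 4 higher and 0 lower.

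Against scramble, shIRAK4 raised genes of all 5 classes in Capan1, with H1 resting on HIST1H1C alone. The call of HIST1H1C was lost without any 1 of the 4 arrays compared and with the Capan1 arrays alone in the fit. It was also lost without a detection filter, with the background from all rows and under median scaling over all rows. With shIRAK4, 16 of 34 tested histone genes were higher and 0 lower, beside 4.51% and 3.96% of all tested genes. These were HIST1H1C, 6 of 8 for H2A, 3 of 9 for H2B, 2 of 7 for H3 and 4 of 9 for H4, or 6 of 10 HIST2 and 10 of 22 HIST1 genes. This comparison and the others with hairpins use the same 2 scramble arrays, which stand on the other side of the comparison with DMSO, so an array that lies low there lies low in all of them.

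HIST1H4H lay at 7.75 and 7.68 with scramble and at 9.45 and 9.0 with shIRAK4 (1.52 ± 0.21, limma adjusted p = 0.000262), with the DMSO arrays at 9.32 and 9.12. HIST2H2BE lay at 8.20 and 8.31 with scramble and at 10.19 and 9.08 with shIRAK4 (1.38 ± 0.34, adjusted p = 0.018). The shIRAK4 arrays of both genes lay above both scramble arrays and overlapped the DMSO arrays. The call of HIST2H2BE was lost without either Capan1 scramble array and without Capan1 shIRAK4 replicate 1. It was also lost with the Capan1 arrays alone in the fit, without a detection filter and under median scaling over all rows.

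HIST2H2AC went from 9.53 and 9.54 to 10.93 and 10.36 (1.11 ± 0.20, limma adjusted p = 0.00296). HIST1H1C rose by 1.52 ± 0.42 (0.0364), HIST1H3H by 1.23 ± 0.20 (0.00137), HIST2H4A by 1.21 ± 0.23 (0.00354) and HIST2H2AA3 by 1.18 ± 0.23 (0.00414). HIST1H4C, at 13.11 and 13.13 against 13.31 and 13.19, differed by -0.12 ± 0.13 (adjusted p = 0.598).

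The 2 shIRAK4 arrays differed: 31 of the 36 histone genes lay higher on replicate 1. Without that array 6 genes were higher, without Capan1 scramble replicate 1 there were 6 higher and 1 lower, without Capan1 scramble replicate 2 there were 9 higher, and with the Capan1 arrays alone in the fit 5 were higher. HIST1H4H and HIST1H3H were called in each of these, but with the background taken from all rows the rise of HIST1H3H was 0.16.

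With shIRAK1 alone 0 of 32 tested histone genes were called in either direction by limma, and 1 had an unadjusted p under 0.05. Over all tested genes 0.888% were higher and 0.757% lower. The fold changes ran from -0.22 to 0.39, with 25 of 32 above 0. HIST1H4H lay at 7.99 and 8.01, above both scramble arrays and below both shIRAK4 arrays (0.29 ± 0.21, limma adjusted p = 0.657). The 2 shIRAK1 arrays lay apart in HIST2H2AC, at 9.23 and 10.04, and in HIST2H2BE, at 8.13 and 8.98.

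With shIRAK1+4, 9 of 32 tested histone genes were higher and 1 lower than with scramble in Capan1, beside 2.32% and 3.36% of all tested genes. The higher genes were 4 of 8 for H2A, 2 of 8 for H2B and 3 of 8 for H4, or 6 of 10 HIST2 and 3 of 21 HIST1 genes.

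HIST1H4H lay at 8.83 and 9.56 (1.48 ± 0.21, limma adjusted p = 0.000627), above both scramble arrays. HIST2H4B rose by 1.05 ± 0.23 (0.0138), HIST2H2AA3 by 0.98 ± 0.23 (0.0197), HIST2H4A by 0.95 ± 0.23 (0.024), HIST2H2AC by 0.87 ± 0.20 (0.02) and HIST2H2AA4 by 0.84 ± 0.21 (0.0255). HIST2H2BE, at 8.52 and 9.51, differed by 0.76 ± 0.34 and was not called (0.201).

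The lower gene was HIST1H4C, at 12.81 and 12.68 against 13.31 and 13.19 (-0.50 ± 0.13, limma adjusted p = 0.0332), a call that several alternatives ended, among them leaving out either scramble array or Capan1 shIRAK1+4 replicate 2.

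On replicate 2 of shIRAK1+4, 28 of the 36 histone genes lay higher than on replicate 1, and the arrays stood at 9.38 and 11.51 for HIST1H1C and at 5.77 and 7.48 for the H2B gene HIST1H2BC. Without replicate 1 the count was 17 higher and 1 lower, without replicate 2 it was 3 higher, without Capan1 scramble replicate 1 it was 2 higher and 1 lower, and without Capan1 scramble replicate 2 it was 1 higher and 1 lower. With the Capan1 arrays alone in the fit 4 were higher, and HIST1H4H was called in all of these.

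In Panc1 the histone genes that moved with hairpins were H2A genes of the HIST2 cluster, and they fell. With shIRAK1, 3 of 18 tested genes were lower than with scramble and 0 higher, beside 5.04% and 5.58% of all tested genes. With shIRAK1+4, 3 of 19 were lower and 0 higher, beside 6.62% and 8.22%. All 3 were H2A genes in each comparison, of 5 and 6 tested.

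HIST2H2AA3 lay at 9.28 and 9.27 with scramble, 8.25 and 8.34 with shIRAK1 (-0.98 ± 0.23, limma adjusted p = 0.0116) and 7.95 and 8.16 with shIRAK1+4 (-1.22 ± 0.23, adjusted p = 0.00203). HIST2H2AC lay at 8.76 and 8.69 with scramble, 7.73 and 7.78 with shIRAK1 (-0.97 ± 0.20, adjusted p = 0.0061) and 7.91 and 7.82 with shIRAK1+4 (-0.86 ± 0.20, adjusted p = 0.0096). The groups of both genes lay well apart from scramble arrays.

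HIST2H2AA4 fell by 0.85 ± 0.21 (limma adjusted p = 0.0144) and 0.97 ± 0.21 (0.00504). HIST2H2BE, which shares its upstream stretch with HIST2H2AC, lay at 6.40 and 6.41 with scramble, 6.13 and 5.67 with shIRAK1 (-0.50 ± 0.34, adjusted p = 0.382) and 6.58 and 6.63 with shIRAK1+4 (0.20 ± 0.34, adjusted p = 0.735).

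Both counts became 0 with the background taken from all rows and with median scaling over all rows. For shIRAK1 the count was 0 without Panc1 scramble replicate 1 and 1 without Panc1 scramble replicate 2, and for shIRAK1+4 it was 2 lower without Panc1 scramble replicate 1 or either shIRAK1+4 array, and 1 higher and 2 lower without Panc1 scramble replicate 2.

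With shIRAK4 in Panc1, limma called 0 of 19 tested histone genes, and 4 had an unadjusted p under 0.05, beside 7.09% of all tested genes higher and 6.21% lower. HIST2H2AA3 lay at 8.80 and 8.62 (-0.57 ± 0.23, adjusted p = 0.112) and HIST2H2AC at 8.17 and 8.21 (-0.54 ± 0.20, adjusted p = 0.0929). For both genes these arrays lay between those of scramble and of shIRAK1. Without Panc1 shIRAK4 replicate 1 the count was 2 lower.

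Panc1 scramble arrays had 4 of 21 histone genes lower than DMSO arrays and 0 higher, beside 13.8% and 12.1% of all tested genes. The 4 were the H2B genes HIST1H2BK (-0.70 ± 0.22, limma adjusted p = 0.031) and HIST1H2BJ (-0.66 ± 0.20, 0.0261) and the H2A genes HIST2H2AA4 (-0.67 ± 0.21, 0.0259) and HIST2H2AC (-0.61 ± 0.20, 0.037). HIST1H2BK lay at 12.07 and 12.11 with DMSO and at 11.34 and 11.44 with scramble. None of these 4 calls held without any 1 of the 4 arrays compared: the count was 1 higher without Panc1 DMSO replicate 2 and 0 without Panc1 DMSO replicate 1 or either Panc1 scramble array.

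**Figure D3:**
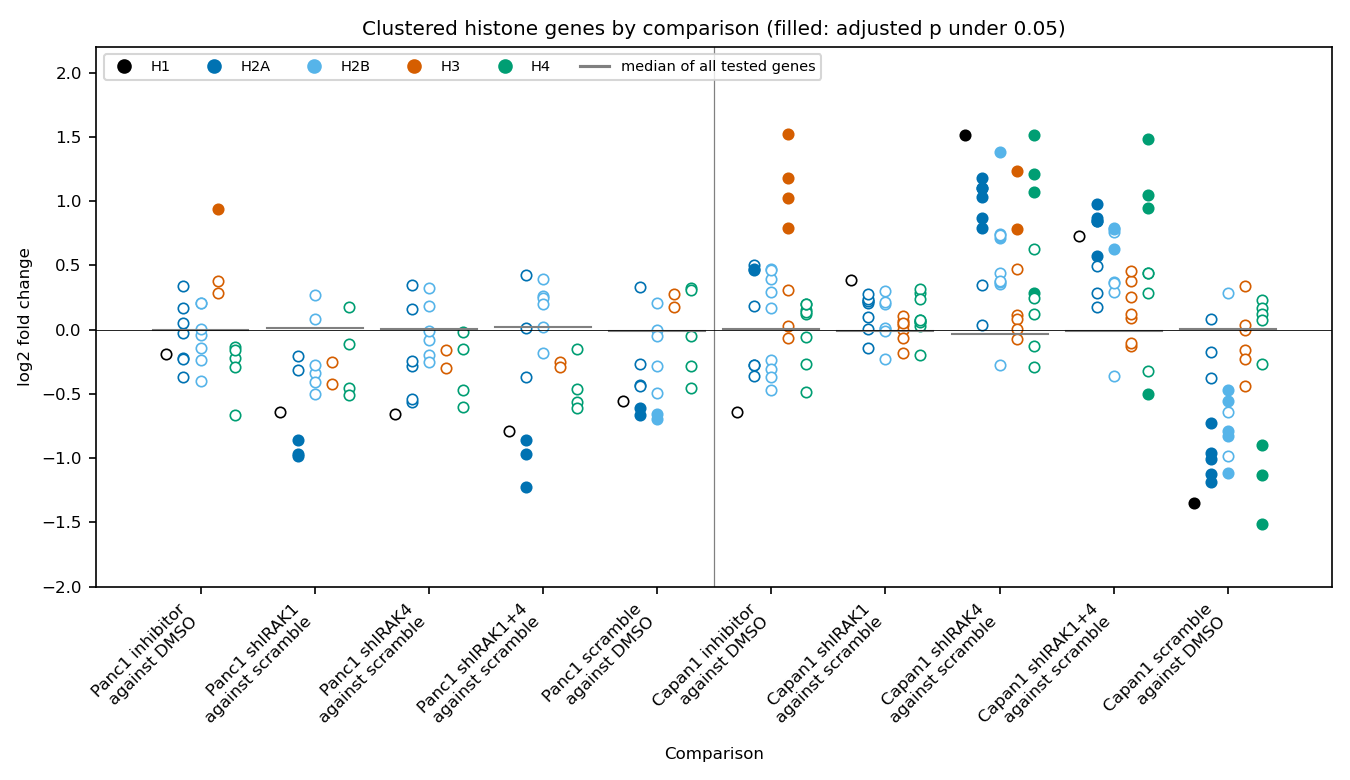
Log2 fold change (y axis) of each tested histone gene in the 10 within-line comparisons (x axis), coloured by class and filled at an adjusted p under 0.05, with grey bars at the median of all tested genes. In Capan1 the filled points lie below 0 for scramble against DMSO, down to -1.51, and above 0 for shIRAK4, up to 1.52, and the filled H3 points are those of the inhibitor and of shIRAK4.

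The effect of shIRAK1+4 was also compared between the lines. It was lower in Panc1 than in Capan1 for 8 of 32 tested histone genes and higher for 0, beside 4.33% and 6.03% of all tested genes. They were 3 of 8 for H2A, 1 of 8 for H2B and 4 of 8 for H4. Of the 10 HIST2 genes, 5 were among them.

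HIST2H2AA3 rose in Capan1 and fell in Panc1, and its effects differed by -2.20 ± 0.32 (limma adjusted p = 0.000587). The same held for HIST2H2AA4 (-1.81 ± 0.29, 0.00114) and HIST2H2AC (-1.73 ± 0.29, 0.00151). These 3 genes were called on their own in both lines, in opposite directions. Their Capan1 calls were each lost without either Capan1 scramble array, without Capan1 shIRAK1+4 replicate 2, without a detection filter, with the Capan1 arrays alone in the fit and under median scaling over all rows.

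HIST1H4H differed by -2.04 ± 0.29 (limma adjusted p = 0.000493), HIST2H4A by -1.56 ± 0.32 (0.00669), HIST2H4B by -1.51 ± 0.32 (0.00803), HIST1H2BG by -0.81 ± 0.24 (0.0415) and HIST1H4J by -0.41 ± 0.12 (0.0404). The first 4 of these 5 were called on their own in Capan1 and not in Panc1. HIST1H4J was detected on no Panc1 array, so its Panc1 effect is background and its difference between the lines is no measured one.

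Without Capan1 shIRAK1+4 replicate 1 the count was 14 lower, and with any other 1 of the 8 arrays left out it was 6 to 8, of which 1 was higher without Capan1 scramble replicate 2. Under median scaling over all rows it was 1 higher and 0 lower.

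**Figure D4:**
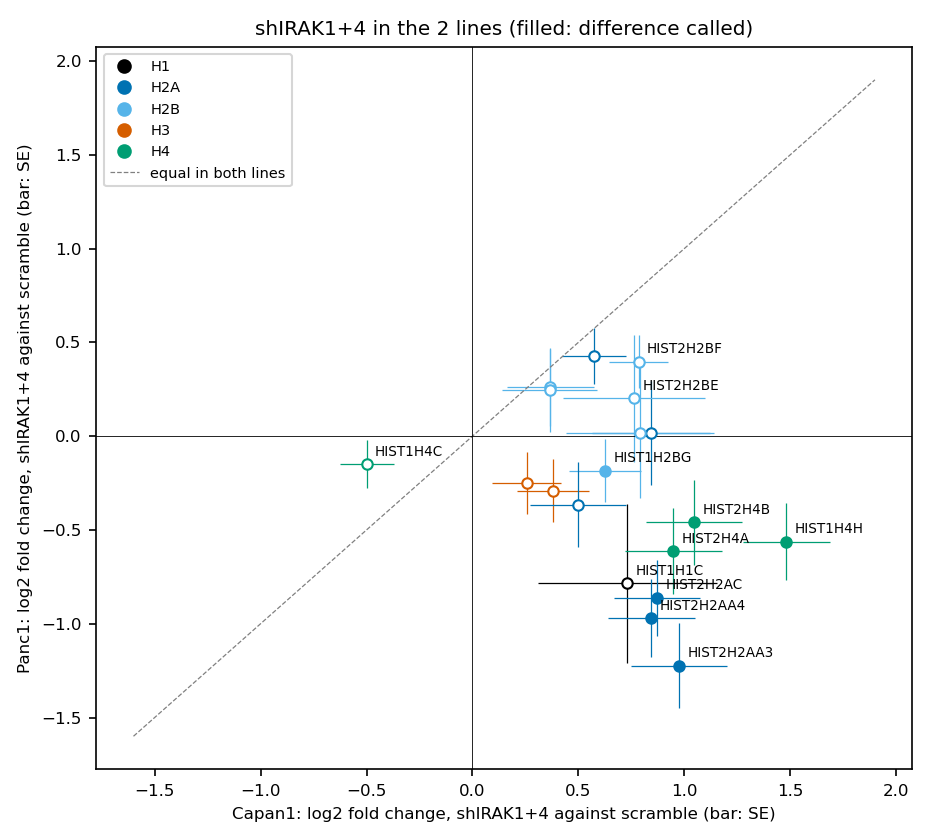
Log2 fold change of shIRAK1+4 against scramble in Capan1 (x axis) and Panc1 (y axis) for the 19 histone genes tested in both lines, with SE bars, filled where the difference between the lines was called (7 of them). HIST2H2AA3, HIST2H2AA4 and HIST2H2AC lie to the right of 0 and below it, at 0.98, 0.84 and 0.87 in Capan1 and -1.22, -0.97 and -0.86 in Panc1.

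The same lists were read in the hairpin comparisons, where the shares of all tested genes called are those given above. In Capan1, 7 of 34 replication genes fell with shIRAK4 and 0 rose, led by MCM10 (-0.86 ± 0.23), UHRF1 (-0.75 ± 0.21) and POLA2 (-0.70 ± 0.15). With shIRAK1+4, 4 of 34 fell and 0 rose, among them the helicase subunits MCM2 (-0.91 ± 0.21) and MCM3 (-0.87 ± 0.12) and GINS2 (-0.52 ± 0.14).

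SLBP, which binds the stem-loop of histone messenger RNA, fell by 0.68 ± 0.14 with shIRAK4 and by 0.52 ± 0.14 with shIRAK1+4, and CDK2 fell by 0.56 ± 0.17 and 0.59 ± 0.17. ERI1, an exonuclease that trims the histone 3-prime end and has another row, on no array, under its older symbol THEX1, fell by 1.05 ± 0.27 with shIRAK1+4. In all, 2 and 3 of 13 genes for histone gene transcription and processing fell and 0 rose.

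Of the replacement histones, CENPA, the centromeric H3, fell by 0.52 ± 0.14 with shIRAK4 and by 0.53 ± 0.14 with shIRAK1+4. H3F3B fell by 1.48 ± 0.21 with shIRAK1+4, and H2AFJ, whose row combines several probes, rose by 0.48 ± 0.12 with shIRAK4. The chaperone NAP1L1 fell by 0.84 ± 0.18 with shIRAK1+4. The rows of NAP1L1, CCNE1, CDK2, UHRF1, LYZ, CD68 and TACSTD1 combine several probes too, so their detection p-values may not follow their signals. Against DMSO, Capan1 scramble arrays had H3F3B (1.17 ± 0.21), CENPA (0.81 ± 0.14) and NAP1L1 (0.55 ± 0.18) higher and CCNE1 (-0.71 ± 0.20) and RRM2 (-1.02 ± 0.25) lower. With shIRAK1 limma called none of the tested genes of these 4 lists in Capan1.

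In Panc1, H1F0 rose with shIRAK1 (0.91 ± 0.18) and shIRAK4 (0.76 ± 0.18), H3F3B fell with shIRAK4 (-0.70 ± 0.21), and H2AFY2 rose with shIRAK1+4 (0.72 ± 0.20). LSM10, a part of the U7 particle that cuts histone messenger RNA, fell by 0.99 ± 0.16 with shIRAK1+4, and HAT1, which acetylates new H4, by 0.72 ± 0.18. Of 32 replication genes 4 fell with shIRAK4, among them TYMS (-0.73 ± 0.23), GINS2 (-0.62 ± 0.14) and CDC45L (-0.55 ± 0.14). With shIRAK1+4, RRM2 (0.81 ± 0.25) and PRIM2 (0.70 ± 0.16) rose and MCM5 (-0.50 ± 0.16) fell, of 34, and with shIRAK1 none of 33 was called.

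Markers of cell types moved beside these histone results. In Capan1, LYZ fell by 3.94 ± 0.33 in scramble against DMSO and rose by 1.96 ± 0.33 with shIRAK4 and by 1.43 ± 0.33 with shIRAK1+4. The log2 of the summed signal of the 10 immune markers ran from 10.84 to 10.88 with DMSO, 9.29 to 9.33 with scramble, 9.78 to 9.99 with shIRAK4 and 9.55 to 10.09 with shIRAK1+4, while PTPRC, CD3E, CD3D, CD163 and NKG7 were on no Capan1 array. ACTA2, of 10 fibroblast markers, rose by 1.60 ± 0.23 with shIRAK4, where that sum ran from 9.53 to 9.80 against 9.22 to 9.32 with scramble. The ductal marker KRT7 fell by 0.82 ± 0.20 with shIRAK4, and SOX9 and KRT8 fell in scramble against DMSO, where the ductal sum ran from 15.06 to 15.23 against 15.39 to 15.47.

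In Panc1, ductal marker rows rose with hairpins, 3 of 8 with shIRAK1, 4 of 8 with shIRAK4 and 5 of 9 with shIRAK1+4, and none fell. Over all tested genes 5.58%, 7.09% and 8.22% were higher. EPCAM and TACSTD1 are rows of the same gene, both counted with shIRAK4 and shIRAK1+4 and both in the ductal sum. EPCAM, an epithelial adhesion gene, rose by 2.32 ± 0.16 with shIRAK1+4, and the ductal sum was 12.20 in scramble arrays and 12.85 to 12.92 with shIRAK1+4. Scramble itself lay below DMSO, where the sum was 13.05 to 13.07, with KRT19 at -1.34 ± 0.18 and KRT8 at -0.88 ± 0.14. In that comparison 5 of 34 replication genes were lower, among them RRM2 (-1.12 ± 0.25), and 2 higher. Over all tested genes 13.8% were lower and 12.1% higher, so the lower count is near that of all genes. COL1A1 rose by 0.97 ± 0.17, 2.43 ± 0.17 and 0.74 ± 0.17 with shIRAK1, shIRAK4 and shIRAK1+4, with COL1A2 and COL3A1 on no array. The part of these markers in the histone results was not tested.

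How the arrays were scaled moved most hairpin counts, although those of Panc1 shIRAK4 and Capan1 shIRAK1 were 0 under each median scaling as well. Scaling to the same median over all rows, most of which were undetected, moved the median of all tested genes to 0.58 in Capan1 scramble against DMSO, and to -0.39, -0.36 and -0.47 for shIRAK1, shIRAK4 and shIRAK1+4 against scramble. Under that scaling the histone median minus the median of all tested genes was -0.46 in scramble against DMSO, 0.77 with shIRAK4 and 0.49 with shIRAK1+4. Under quantile normalization these differences were -0.48, 0.58 and 0.46. In Panc1 they were -0.38 with shIRAK1 and -0.27 with shIRAK1+4 under quantile normalization, and -0.37 and -0.25 under median scaling. The calls, however, are made against 0, and under median scaling 0 histone genes were called higher with shIRAK4 or shIRAK1+4 in Capan1 while 1 and 2 were called lower.

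**Figure D5:**
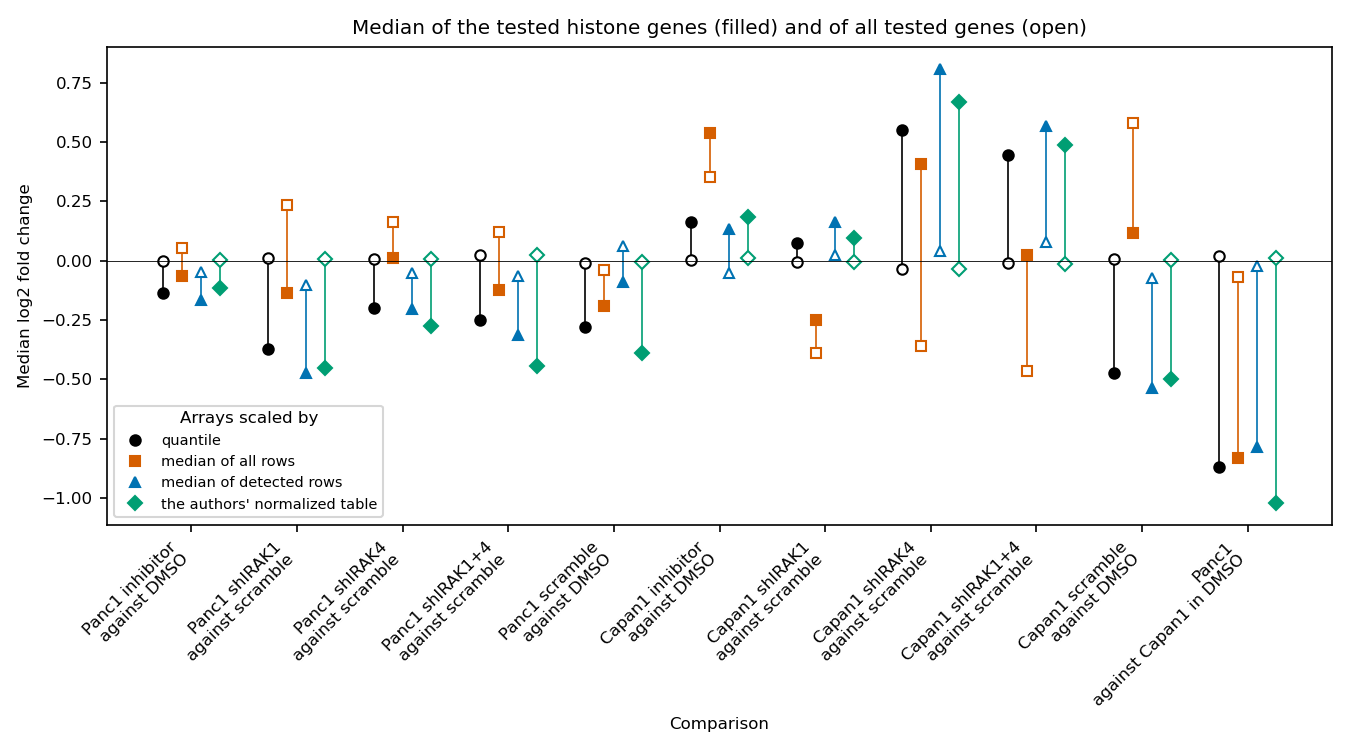
Median log2 fold change (y axis) of the tested histone genes (filled) and of all tested genes (open) in 11 comparisons (x axis) under 4 ways of scaling the arrays. With Capan1 shIRAK4 the histone median lies above the median of all genes under each scaling, by 0.58 to 0.77. In Capan1 scramble against DMSO the difference is -0.46 to -0.50, although median scaling over all rows moves both medians. Both median scalings shift each array by a constant, so their differences are equal by construction.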

How the data were processed

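Each sample was 1 one-colour bead array. The values used were log2 signals, 1 per gene, from the table that the authors deposited as non-normalized. A detection p-value stands beside each signal, per the file headers. GenomeStudio 2011 is named in the submitters' processing notes. How several probes became 1 gene value is not given in the sources used here. The authors' deposited normalized log2 table was an alternative.

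Signals were made linear and corrected by normexp in limma 3.58.1 (R 4.3.3), with offset 16. The background mean and SD came from the 27191 rows whose detection p-values step as those of 1 probe do. They were then quantile normalized over the 24 arrays and logged. A gene was tested where either compared group had a detection p under 0.01 on each of its 2 arrays. The 13 comparisons came from 1 limma model of the 12 groups, with 12 residual and 3.80 prior degrees of freedom and a prior SD of 0.140. Benjamini-Hochberg adjustment was done separately for each. The number of arrays limits the precision. The planned tests assumed linear probe signals, and the files hold log2 signals per gene. Within a line, a fold against a group without detection is given as at least the fold over the detection limit.

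The genes named were every detected H1 gene, the 3 of each class with the highest mean level, the 6 largest called changes of each comparison with all 4 array differences of 1 sign (4 for differences between lines), the 3 largest called genes per list of replication and histone supply genes, IRAK1 and IRAK4. HIST1H2BC, HIST3H2BB and other genes outside this rule were named after their values were seen. The members and lists were chosen with earlier results of these data known. The steps were tested on simulated data. Alternatives were the background step, scaling, detection filter, arrays in the fit, array weights, a replicate block and leaving out each array. Sequences are from RefSeq.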

Additional observations from a re-analysis of the deposited data

Results flagged for a closer look

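Between the lines, 10 effects on histone genes differed by an interaction term in limma (adjusted p under 0.05), each as Panc1 minus Capan1. For the inhibitor these were HIST1H3D (-1.16) and HIST1H3B (-0.58). For shIRAK1+4 they were HIST2H2AA3 (-2.20), HIST1H4H (-2.04), HIST2H2AA4 (-1.81), HIST2H2AC (-1.73), HIST2H4A (-1.56), HIST2H4B (-1.51), HIST1H2BG (-0.81) and HIST1H4J (-0.41). HIST1H4J was on no Panc1 array and HIST1H3B on no Panc1 DMSO array. HIST1H3D was on 1 of 2 arrays of both the Panc1 DMSO and the Panc1 inhibitor group. The sizes for HIST1H4J, HIST1H3B and HIST1H3D thus rest partly or wholly on background in Panc1. The 2 Capan1 shIRAK1+4 arrays differed from each other by more than those of most groups, with a median SD over the histone genes of 0.212 against 0.0574 in Panc1 DMSO, and the part of that spread in these differences was not tested.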

How the results depend on the processing

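Of 71 called changes of named histone genes, 14 passed the threshold under all alternatives run, 57 missed it under 1 or more, and 0 reversed. They missed it 52 times under median scaling over all rows, 19 times without a detection filter, 19 times with each line alone in the fit, 13 times with the background from all rows, 8 times under median scaling over the rows detected on all arrays (added after seeing the data), 6 times with the authors' normalized table, 6 with a replicate block, 5 without background correction and 2 with array weights. Counts of called histone genes moved as follows.

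Median scaling over all rows gave 0 called for Panc1 shIRAK1, shIRAK1+4 and scramble against DMSO. It turned Capan1 scramble against DMSO to 4 higher, Capan1 shIRAK4 to 1 lower, Capan1 shIRAK1+4 to 2 lower and the difference in shIRAK1+4 between lines to 1 higher. It gave 13 between the lines and 1 for the difference in inhibitor effect. Median scaling over detected rows gave 0 for the Panc1 inhibitor, 1 for Panc1 scramble against DMSO and 1 for the difference in inhibitor effect. The background from all rows gave 0 for Panc1 shIRAK1, 0 for shIRAK1+4 and 2 for scramble against DMSO. No background correction gave 5 for Panc1 shIRAK1, 1 for shIRAK4 and 1 for the difference in inhibitor effect, and the authors' normalized table gave the same 5, 1 and 1. Without a detection filter the counts were 1 for Panc1 shIRAK4, 0 for Panc1 scramble against DMSO, 1 for Capan1 shIRAK1, 4 for shIRAK1+4 and 7 for scramble against DMSO. With each line alone they were 3, 6, 3, 5 and 7 for the Panc1 inhibitor, shIRAK1, shIRAK4, shIRAK1+4 and scramble against DMSO, and 5, 4 and 7 for Capan1 shIRAK4, shIRAK1+4 and scramble against DMSO. Array weights gave 2 for the Panc1 inhibitor, 7 for Panc1 shIRAK1+4 and 12 for the Capan1 inhibitor.

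Same-numbered arrays correlated at -0.14 to 0.48 in their deviations, with the highest value between Panc1 shIRAK1 and shIRAK4. These values do not settle whether the numbers pair the arrays. The replicate block gave 2 for Panc1 scramble against DMSO. Leaving out each array gave 1 in each case for the Panc1 inhibitor, 0 to 2 for shIRAK1 and for shIRAK4, 2 to 3 for shIRAK1+4 and 0 to 1 for scramble against DMSO. In Capan1 it gave 4 to 8, 0 in each case, 6 to 19, 2 to 18 and 5 to 7 in the same order. It gave 18 to 21 between the lines, 1 to 3 for the difference in inhibitor effect and 6 to 14 for that in shIRAK1+4. A lone array was then taken to have the spread of the rest. The cause of these changes in the counts was not tested. A slide block was not run, since no slide identifier was used here. Signal over background limits genes near the detection limit of 5.53 to 5.72. The H3 genes in Panc1 all had a lowest array below 5.53.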

Other observations

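HIST1H2BD, an H2B gene whose row combines several probes, was detected on 2 of the 24 arrays although its level ran from 8.83 to 11.13, with a median of 9.94. Its detection p-value is therefore no guide to its signal, and the gene was left out by the detection rule. The other row of several probes, HIST1H2AG, the head-to-head neighbour of HIST1H2BJ, ran from 5.34 to 6.31 and was detected on 3 arrays. Among the 1-probe genes left out, the highest mean level was 5.5.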
